A study of Mus musculus with 8 samples.

Results

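The genes described here encode the glycosyltransferases that build mucin-type O-glycans and finish glycan chains with galactose, N-acetylglucosamine, fucose and sialic acid. They were read out in mouse pancreatic cancer cells after 72 h with or without an antibody that neutralizes sonic hedgehog (SHH). Members were taken by symbol and not by value, though the choice was made with earlier results of these data known. Each protein-coding gene whose symbol begins with Galnt, Gcnt, B3gnt, B3galt, B4galt, Fut, St3gal, St6gal or St8sia, followed by a number or the letter l, was counted. The rule took 69 of the 39179 genes of the count table, under 68 distinct symbols because Galntl6 is listed under a pair of gene identifiers. Of these, 40 had enough reads to be tested.

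The comparison was between 2 arms of 4 libraries each. Both held GFP-marked epithelial cancer cells of a mixed FVB/B6 background whose labelled genotype includes p48Cre, ROSA_rtTAL+ and p53L+, the same in both arms. p48Cre is a Cre driven from a pancreas gene, and rtTA is an activator that works when doxycycline is present. The SHH antibody arm grew with 20 µg/mL of the antibody and the no antibody arm without it, and no control antibody is named. In both arms the cancer cells shared the dish with RFP-marked pancreatic stellate cells in 0.5% dialyzed serum, and were then separated by their fluorescence and lysed. The labels call the 4 libraries of an arm biological replicates, without saying whether they came from 1 line or clone. Whether doxycycline was present is not given in the sources used here.

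Mucin-type O-glycosylation starts in the Golgi when a GALNT enzyme links N-acetylgalactosamine to serine or threonine. Galactose or N-acetylglucosamine then forms a core, GCNT enzymes branch it, and B3GNT and B4GALT enzymes add alternating N-acetylglucosamine and galactose. Fucosyltransferases and sialyltransferases cap these chains, and several of the same enzymes also act on N-glycans and glycolipids. Capped glycans of this kind carry blood group and Lewis antigens, including the CA19-9 antigen used as a marker of pancreatic cancer in people, although mice do not make that antigen.

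Library totals ran from 14953255 to 15733280 counts with the antibody and from 10009711 to 14602784 counts without it. Among the libraries without antibody, replicate 1 stood apart. Its log2 levels differed from the mean of the other libraries of its arm by 0.157 (root mean square over the 4948 genes with at least 50 CPM, which are read counts brought to a common library size), against 0.0991 to 0.109 for the other no antibody libraries and 0.0562 to 0.0751 for the antibody libraries. Its mitochondrial share, 6.48%, was also the highest, against 4.10% to 5.02% with the antibody and 4.33% to 4.73% in the other no antibody libraries. The summed epithelial markers (Epcam, Cdh1, Krt8, Krt18, Krt19) stood at 5576 to 5887 CPM with the antibody and at 5118 to 5946 CPM without it, and of the 5 Epcam rose (25.0 ± 1.64 CPM with the antibody and 20.6 ± 1.496 CPM without it, mean ± SD, n = 4 each, adjusted p = 0.0220). The 12 stellate and fibroblast markers summed to 25.9 to 52.7 CPM with the antibody and 26.2 to 46.3 CPM without it, with Dcn and Lum at 0 in all libraries. Of the 5 stellate markers tested, with a median log2 fold change of 0.47, 4 had log2 fold changes above 0 that did not pass the test: Col1a1 (0.36 ± 0.15, adjusted p = 0.169), Col1a2 (0.47 ± 0.24, adjusted p = 0.271), Col3a1 (0.66 ± 0.28, adjusted p = 0.156) and Pdgfrb (0.61 ± 0.45, adjusted p = 0.473). The fifth, Pdgfra, fell (2.78 ± 0.489 CPM with the antibody and 4.97 ± 0.888 CPM without it, adjusted p = 0.00271). Leukocyte markers summed to 4.36 to 6.16 CPM with the antibody and 4.18 to 5.998 CPM without it. Most of that was Cd68 (means of 5.05 CPM with the antibody and 4.60 CPM without it), with Ptprc at 0.342 and 0.308 CPM. Endothelial markers summed to 12.9 to 14.1 CPM with the antibody and 11.1 to 12.9 CPM without it. Most of that was Cdh5 (12.6 CPM with the antibody and 11.5 CPM without it). Pecam1 was at 0.097 and 0.130 CPM and Kdr at 0.944 and 0.589 CPM, in the same order. Acinar markers summed to 2.94 to 3.81 CPM with the antibody and 2.92 to 5.79 CPM without it, with Cpa1 and Amy2a5 at 0. Most of that was Cela1 (2.99 CPM with the antibody and 3.88 CPM without it). The part of any admixed cells in the results was not tested.

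With the SHH antibody, 9 of the 40 tested members rose and 2 fell, at an adjusted p under 0.05. The test was edgeR's quasi-likelihood test with Benjamini-Hochberg adjustment over all 13626 genes tested. The members that rose were Galnt4, Galnt7, Galnt12, B3gnt3, B4galt1, B4galt6, Fut2, Fut8 and St3gal5, and those that fell were St3gal1 and St3gal6. That is 27.5% of the tested members, beside 8.4% of all genes tested (22.5% beside 4.53% for rises, and 5% beside 3.87% for falls). The share of members that fell is thus near that of all genes. All but 1 of the changes were small: 10 of the 11 had a log2 fold change under 0.5 in size, and Fut2 alone passed 1.5-fold. The median log2 fold change, antibody over no antibody, was 0.08 over the tested members and -0.0044 over all genes. Of the 40 values 27 were above 0, beside 6602 of the 13626 genes tested. In 14 of the 40 the libraries of both arms did not overlap, 12 of them with higher levels under the antibody, beside 14.3% of all genes, 7.71% with higher levels under the antibody and 6.56% with lower levels. The tested members were more abundant than the average gene, with a median of 46.0 CPM against 29.7 CPM over all genes. In sorted bulk cells, less RNA per cell and fewer cells of a type cannot be told apart. Fut2 passed the filter on low counts only through the antibody libraries, since no antibody replicate 3, with 3 counts, lay below it. Without Fut2, 8 of 39 members were called higher (20.5%). With no antibody replicates 1 and 4 left out together, 12 of 41 tested members were called (29.3%), 10 higher and 2 lower, beside 16.3% of all genes. Of the 2 falls, that of St3gal6 was lost without any 1 of the antibody libraries or without no antibody replicate 4, which left 1.

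**Figure D1:**
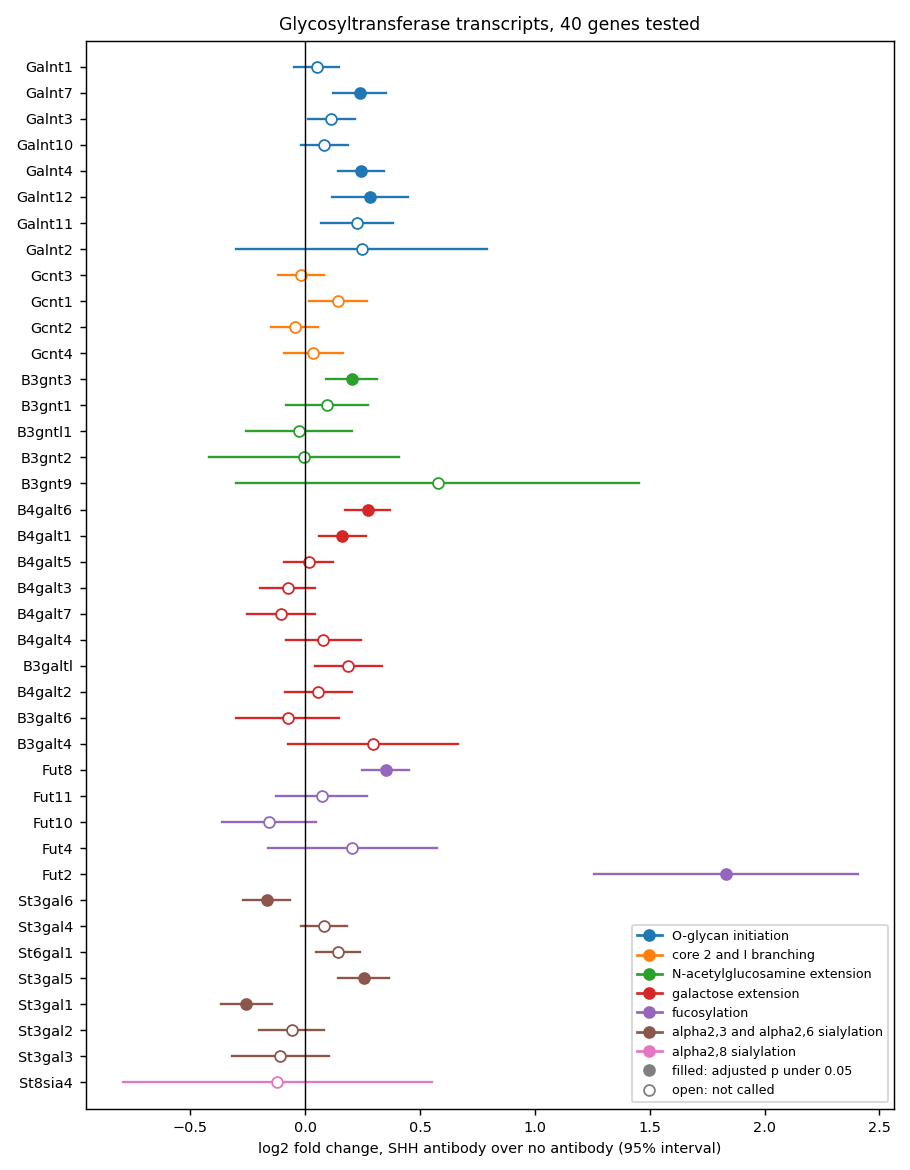
Log2 fold change (SHH antibody over no antibody) of each of the 40 tested members, coloured and grouped by role, with 95% intervals as bars. Filled points mark the called members, and Fut2, at 1.83, lies far to the right of the others.

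The upstream sequences of 4 called members are shown as the 250 bases before the RefSeq start nearest the gene (GRCm38.p6). They were chosen to stand for initiation, core fucose and the sialyltransferases, where St3gal5 rose and St3gal6 fell. Capitals mark GC boxes (GGGCGG) and CCAAT boxes (CCAAT) on either strand, and no matches overlap one another.
Galnt7, chr8:57653056-57653305, minus strand: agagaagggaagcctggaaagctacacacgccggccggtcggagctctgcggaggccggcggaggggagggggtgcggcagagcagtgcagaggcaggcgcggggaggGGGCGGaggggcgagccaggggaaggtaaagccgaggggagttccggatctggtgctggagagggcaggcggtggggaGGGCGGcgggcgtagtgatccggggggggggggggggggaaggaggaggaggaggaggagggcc
Fut8, chr12:77237854-77238103, plus strand: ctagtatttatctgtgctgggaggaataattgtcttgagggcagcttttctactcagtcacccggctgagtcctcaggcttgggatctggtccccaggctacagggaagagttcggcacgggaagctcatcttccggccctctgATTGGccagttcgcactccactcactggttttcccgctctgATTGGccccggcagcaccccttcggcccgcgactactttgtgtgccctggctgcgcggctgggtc
St3gal5, chr6:72097358-72097607, plus strand: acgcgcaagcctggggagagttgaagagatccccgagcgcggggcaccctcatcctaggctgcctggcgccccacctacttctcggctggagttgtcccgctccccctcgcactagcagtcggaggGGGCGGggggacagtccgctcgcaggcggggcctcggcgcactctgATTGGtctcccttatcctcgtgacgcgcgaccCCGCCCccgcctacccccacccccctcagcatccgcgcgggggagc
St3gal6, chr16:58524254-58524503, minus strand: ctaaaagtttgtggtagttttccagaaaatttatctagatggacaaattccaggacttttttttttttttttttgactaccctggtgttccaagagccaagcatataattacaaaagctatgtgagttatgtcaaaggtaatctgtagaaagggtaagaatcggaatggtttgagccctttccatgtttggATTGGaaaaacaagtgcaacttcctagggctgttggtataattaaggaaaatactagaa

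These windows are 73.6% G and C for Galnt7, 59.2% for Fut8, 71.6% for St3gal5 and 34.8% for St3gal6, around a median of 52.4% over 32851 windows of the same length. GC boxes occurred in 32.7% of all windows and in 4 of the 6 called members with a window that could be examined, and CCAAT boxes in 33.8% and in 3 of the 6. Over all tested members with such a window, 17 of 27 held a GC box and 10 of 27 a CCAAT box. The GLI motif GACCACCCA, through which hedgehog signalling acts on DNA, was in 0 of the 27 windows on either strand, and in 0.225% of all windows. TGANTCA, bound by AP-1, and TATAAA were also in 0 of the 27, and in 6.75% and 12.4% of all windows. These are matches of letters in a short window and say nothing of binding elsewhere.

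Among the enzymes that start O-glycans, 3 of 8 tested rose and 0 fell. Over all genes tested, to be set beside this role and those below, 4.53% rose, 3.87% fell and 6602 of 13626 values were above 0. All 8 GALNT values were above 0, with a median log2 fold change of 0.23, and the summed level of all 19 GALNT members was 136 ± 1.88 RPKM with the antibody and 122 ± 3.19 RPKM without it (SD, n = 4 each). RPKM is the authors' read count scaled by gene length and library total, so levels of different genes can be set beside each other on it. Galnt7 (ENSMUSG00000031608, chromosome 8, 57523828 to 57653032, minus strand), which prefers peptides that already carry N-acetylgalactosamine, had 119.8, 132, 127 and 128 CPM in antibody replicates 1 to 4, against 118, 96.5, 106 and 109.6 CPM in no antibody replicates 1 to 4. The arms lay close but did not overlap: the lowest antibody library, replicate 1, was just above the highest no antibody library, also replicate 1. The means were 127 ± 5.17 CPM with the antibody and 108 ± 9.09 CPM without it, and the log2 fold change 0.24 ± 0.06 (± SE, adjusted p = 0.00943). A pseudogene on the other strand within Galnt7, Gm10284, had 12.7 ± 1.78 CPM with the antibody and 12.5 ± 1.43 CPM without it.

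Galnt4 (ENSMUSG00000090035, chromosome 10, 99108135 to 99113245, plus strand), another enzyme that acts well on partly glycosylated peptides, had 86.5, 83.3, 82.2 and 82.4 CPM with the antibody and 72.4, 68.3, 72.6 and 69.1 CPM without it. All antibody libraries lay above all no antibody libraries, and the spread within each arm was small beside the gap. The log2 fold change was 0.24 ± 0.05 (adjusted p = 0.00221). Galnt4 lies within Poc1b, a centriole gene on the same strand, so the counting may divide their reads in ways not stated. Poc1b itself had 35.3 ± 1.09 CPM with the antibody and 34.7 ± 1.41 CPM without it (log2 fold change 0.03, adjusted p = 0.846).

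Galnt12 (ENSMUSG00000039774, chromosome 4, 47091909 to 47123070, plus strand), a GALNT known from the gut and from human colorectal cancer, was scarcer. It had 17.4, 19.7, 18.7 and 20.2 CPM with the antibody and 15.6, 15.6, 16.4 and 14.9 CPM without it, with no overlap. Its log2 fold change of 0.28 ± 0.08 (adjusted p = 0.0300) lost its call without antibody replicate 2, 3 or 4 or without no antibody replicate 2 or 4 (adjusted p = 0.0559 to 0.101), and with no antibody replicates 1 and 4 both left out (adjusted p = 0.0935).

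The other 5 GALNT values ran from 0.05 for Galnt1 to 0.24 for Galnt2. Galnt1, a broad initiating enzyme and the most abundant of the group per length (42.9 RPKM with the antibody and 41.1 without), had a 95% interval of 0.968 to 1.11-fold. It made up 31.5% ± 0.33 of the group's summed RPKM with the antibody and 33.6% ± 0.91 without it. Galnt11 did not pass (log2 fold change 0.23 ± 0.08, adjusted p = 0.0702) although its arms did not overlap, and it was called when no antibody replicate 1 or replicate 2 was left out (adjusted p = 0.0471 and 0.0463). Galnt3, which glycosylates the hormone FGF23, was at 81.3 ± 2.72 CPM with the antibody and 75.0 ± 2.48 CPM without it (adjusted p = 0.174). Galnt10 was at 101 ± 2.59 CPM with the antibody and 95.4 ± 4.77 CPM without it (adjusted p = 0.358). Galnt2, a major initiating enzyme in many tissues, was at only 0.336 RPKM with the antibody and 0.285 RPKM without it, but a coding gene model listed at 0 overlaps it on the same strand, so its level is uncertain.

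**Figure D2:**
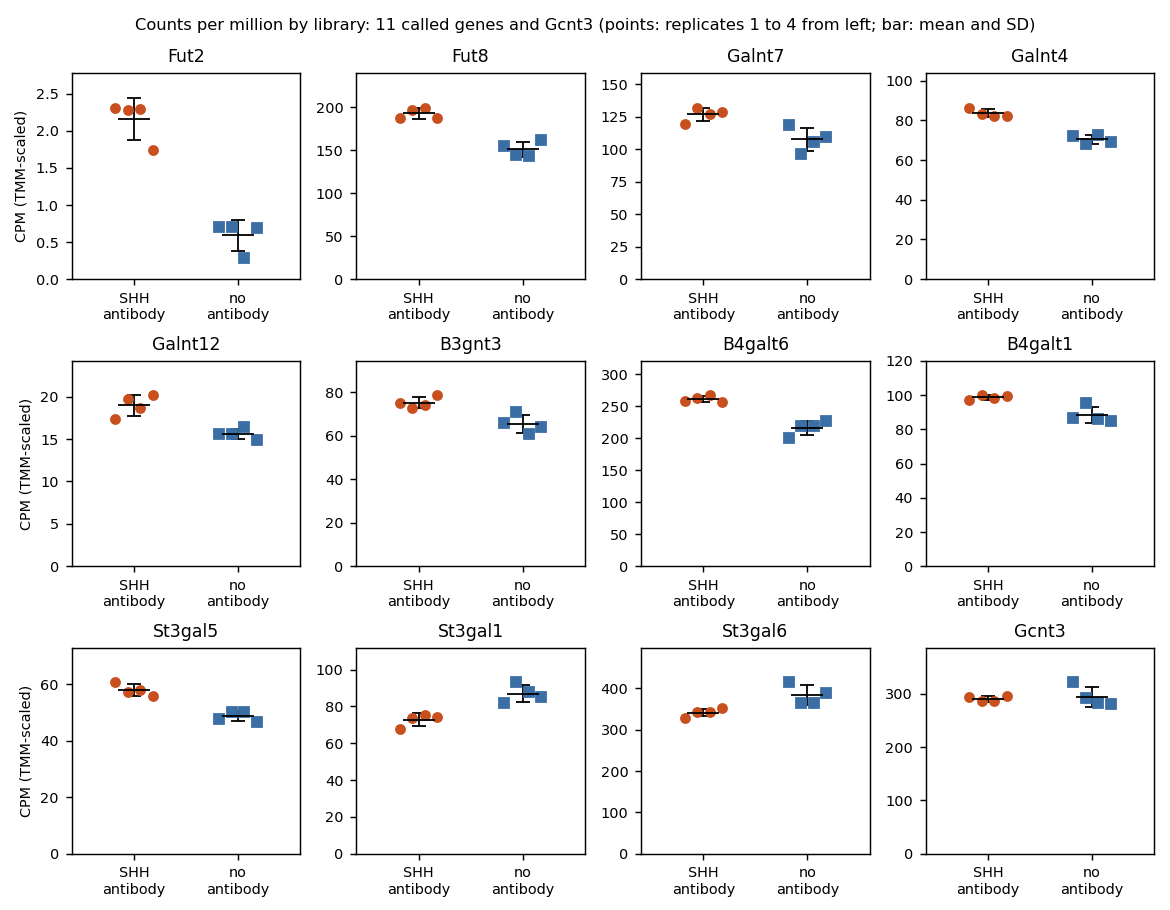
CPM of the 11 called members and Gcnt3 in each library, with 4 SHH antibody libraries (circles) on the left of each panel and 4 no antibody libraries (squares) on the right, replicates 1 to 4 from left within an arm, and bars for mean and SD. The arms do not overlap in any panel but that of Gcnt3, where the no antibody libraries spread from 281.0 to 322 CPM around the antibody libraries at 286 to 296 CPM.

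No change passed the test among the enzymes that branch the cores: 0 of the 4 tested GCNT genes were called by edgeR, 0 by DESeq2 and 0 by limma voom, while 1, Gcnt1, had an unadjusted p under 0.05. Gcnt3 (ENSMUSG00000032226, chromosome 9, 70031496 to 70038088, minus strand), the core 2 and core 4 branching enzyme of mucin-secreting epithelia, was the most abundant of all members per length. It had 295, 286, 286 and 296 CPM with the antibody and 322, 293, 283 and 281 CPM without it. The arms overlapped, and the highest and the lowest value were both in no antibody libraries. The log2 fold change was -0.02 ± 0.05 with a 95% interval of 0.920 to 1.06-fold (adjusted p = 0.874). Its share of the group's summed RPKM was 69.2% ± 0.42 with the antibody and 70.1% ± 0.44 without it.

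Gcnt1, the widespread core 2 enzyme, had 65.5 ± 1.62 CPM with the antibody and 59.3 ± 5.68 CPM without it (log2 fold change 0.14 ± 0.06, adjusted p = 0.163). Without no antibody replicate 1 that change was 0.21 and passed (adjusted p = 0.00984). Gcnt2, which makes the branched I antigen, stood at 75.6 ± 2.46 CPM with the antibody and 78.1 ± 2.10 CPM without it (95% interval 0.902 to 1.04-fold). Gcnt4, another core 2 enzyme, stood at 39.0 ± 2.19 CPM with the antibody and 38.1 ± 2.17 CPM without it (95% interval 0.937 to 1.12-fold).

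Of the 5 genes tested under B3gnt symbols only B3gnt3 rose, beside 4.53% of all genes. B3gnt3 (ENSMUSG00000031803, chromosome 8, 71691719 to 71701800, minus strand) extends core 1 O-glycans with N-acetylglucosamine, and per length it was the group's main transcript (35.8 RPKM with the antibody and 31.0 without). Its levels were 74.8, 72.9, 74.2 and 78.7 CPM with the antibody and 65.8, 70.9, 61.0 and 63.8 CPM without it. No antibody replicate 2 came near the antibody libraries, but the arms did not overlap. The log2 fold change of 0.20 ± 0.05 (adjusted p = 0.0201) lost its call without antibody replicate 1, 3 or 4 or without no antibody replicate 3 or 4 (adjusted p = 0.0511 to 0.0859).

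The other 4 had log2 fold changes between -0.03 (B3gntl1) and 0.58 (B3gnt9), none past the threshold. B3gnt9, with 0.719 ± 0.154 CPM with the antibody and 0.475 ± 0.289 CPM without it, had a wide interval of 0.812 to 2.74-fold. B3gnt2, the main enzyme of polylactosamine chains in many tissues, was at 2.24 ± 0.405 CPM with the antibody and 2.23 ± 0.242 CPM without it. A same-strand gene model overlaps it, so that its low level is uncertain. The gene that the table lists as B3gnt1 carries the identifier of B4gat1 in GENCODE M21, an enzyme of O-mannose glycans. It was not called (22.9 ± 2.10 CPM with the antibody and 21.5 ± 2.38 CPM without it).

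Among the genes taken by symbol as galactosyltransferases, B3galtl included, 2 of 10 tested rose, beside 4.53% of all genes. The larger change was that of B4galt6 (ENSMUSG00000056124, chromosome 18, 20684599 to 20746404, minus strand), 1 of a pair of enzymes that make lactosylceramide, the base of most glycosphingolipids. B4galt6 was at 259, 263, 268 and 256 CPM with the antibody and at 200.2, 219.7, 219 and 227 CPM without it. Every antibody library was above every no antibody library, and the lowest value was that of no antibody replicate 1. This was a log2 fold change of 0.27 ± 0.05 (adjusted p = 0.000609), or 1.21-fold. B4galt5, the other lactosylceramide synthase, was at 58.9 ± 1.93 CPM with the antibody and 58.4 ± 1.65 CPM without it, with a 95% interval of 0.939 to 1.09-fold. B4galt6 held 36.3% ± 0.75 of the group's summed RPKM with the antibody and 32.8% ± 1.68 without it, and B4galt5 held 11.04% ± 0.34 with the antibody and 11.92% ± 0.28 without it.

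B4galt1 (ENSMUSG00000028413, chromosome 4, 40804602 to 40854005, minus strand), the galactosyltransferase that acts on most N-glycans, was at 97.1, 100.1, 98.1 and 99.3 CPM with the antibody and 86.9, 95.3, 86.3 and 85.0 CPM without it. No antibody replicate 2 lay just under the lowest antibody library, and the other 3 lay well below. The change of 0.16 ± 0.05 on the log2 scale (adjusted p = 0.0448) was the weakest of the calls. It was lost without any 1 of the antibody libraries and without no antibody replicate 3 or 4 (adjusted p = 0.0854 to 0.149), with no antibody replicates 1 and 4 both left out (0.0906), with upper quartile scaling (0.0524), on libraries thinned to equal depth (0.0664) and on the authors' RPKM (0.0638 and 0.0648).

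For the other 8 the log2 fold changes ran from -0.10 for B4galt7 to 0.30 for B3galt4, without a call. B4galt7 and B3galt6, which build the linker that joins glycosaminoglycans to proteins, were at 27.8 ± 1.801 and 8.98 ± 0.883 CPM with the antibody and at 29.8 ± 2.17 and 9.40 ± 0.847 CPM without it. B3galtl (B3glct in GENCODE M21), which adds glucose to O-linked fucose and no galactose, had arms that did not overlap but did not pass (log2 fold change 0.19 ± 0.07, adjusted p = 0.105).

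Among all tested members, a fucosyltransferase had the largest change (Fut2) and another the smallest adjusted p (Fut8). Fut2 entered the test only through the antibody libraries, where it was high. Fut2 (ENSMUSG00000055978, chromosome 7, 45648595 to 45666308, minus strand) is the secretor enzyme that adds alpha1,2-linked fucose to make the H antigen on mucins. Its raw counts were 36, 36, 35 and 26 in antibody replicates 1 to 4, against 9, 7, 3 and 10 in no antibody replicates 1 to 4. On the scaled axis these are 2.32, 2.29, 2.30 and 1.75 CPM with the antibody and 0.701, 0.701, 0.281 and 0.685 CPM without it. The lowest antibody library stood far above the highest no antibody library, but the no antibody values rested on few reads, and 3 counts correspond to 0.191 to 0.300 CPM in these libraries. Its log2 fold change was 1.83 ± 0.28, or 3.56-fold with a 95% interval of 2.39 to 5.30 (adjusted p = 0.000138). Fut2 stayed a minor transcript per length, at 0.757 RPKM with the antibody and 0.206 RPKM without it. Fut1, its neighbour 27535 bases away and also an H antigen enzyme, had too few reads to test: 1, 2, 5 and 5 counts with the antibody, and 7, 3, 4 and 8 without it.

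Fut8 (ENSMUSG00000021065, chromosome 12, 77238104 to 77476338, plus strand) adds the alpha1,6-linked core fucose of N-glycans and is the only enzyme known to do so. It was at 187, 197, 199.6 and 187 CPM with the antibody and at 154, 145, 143 and 162 CPM without it. The arms lay well apart, with replicates 1 and 4 the highest of the no antibody libraries. The means of 193 ± 6.48 CPM with the antibody and 151 ± 8.81 CPM without it gave a log2 fold change of 0.35 ± 0.05, or 1.27-fold (95% interval 1.19 to 1.37, adjusted p = 6.19e-05). Fut8 was 86.2% ± 0.21 of the summed RPKM of all 8 fucosyltransferase members with the antibody and 83.7% ± 1.68 without it, and Fut2 was 1.19% ± 0.14 with the antibody and 0.40% ± 0.14 without it. The other 3 were not called. Fut4, a Lewis X enzyme, was at 3.54 ± 0.519 CPM with the antibody and 3.08 ± 0.585 CPM without it, and Fut11 was at 13.6 ± 0.497 CPM with the antibody and 13.0 ± 1.71 CPM without it. Fut10 was at 14.2 ± 0.663 CPM with the antibody and 15.8 ± 2.30 CPM without it, and its log2 fold change, -0.16, was the lowest among uncalled members.

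Sialyltransferases changed in both directions: of the 7 tested alpha2,3 and alpha2,6 sialyltransferases, 1 rose and 2 fell, beside 4.53% and 3.87% of all genes. The summed level of all 8 such members was 182 ± 1.79 RPKM with the antibody and 183 ± 3.09 RPKM without it. St3gal5 (ENSMUSG00000056091, chromosome 6, 72097613 to 72154570, plus strand), the synthase of the ganglioside GM3 from lactosylceramide, was at 60.8, 57.3, 58.1 and 55.8 CPM with the antibody and 47.6, 50.3, 50.3 and 46.8 CPM without it. Its arms were well apart, and its log2 fold change was 0.25 ± 0.05 (adjusted p = 0.00382).

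St3gal1 (ENSMUSG00000013846, chromosome 15, 67102875 to 67113992, minus strand) caps core 1 O-glycans with alpha2,3-linked sialic acid, which ends their growth. It was at 67.5, 73.4, 75.5 and 74.1 CPM with the antibody and at 81.9, 93.1, 87.6 and 85.2 CPM without it. All antibody libraries were lower than all no antibody libraries, the lowest being antibody replicate 1. The change was -0.26 ± 0.05 on the log2 scale (adjusted p = 0.00322), or 1.196-fold lower. St3gal2, which acts on the same core 1 disaccharide and on gangliosides, was at 59.8 ± 1.59 CPM with the antibody and 62.7 ± 7.73 CPM without it (adjusted p = 0.674), and was called lower with no antibody replicates 1 and 4 both left out (log2 fold change -0.21, adjusted p = 0.00753).

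St3gal6 (ENSMUSG00000022747, chromosome 16, 58468125 to 58524243, minus strand) sialylates lactosamine chains, and followed Gcnt3 in level per length (56.2 RPKM with the antibody and 62.8 without). It was at 329, 342, 342 and 351 CPM with the antibody and 415, 364, 364 and 389.8 CPM without it. No antibody replicates 2 and 3 lay just above the highest antibody library, and replicates 1 and 4 well above. The log2 fold change was -0.17 ± 0.05 (adjusted p = 0.0371), and it lost its call without any 1 antibody library or no antibody replicate 4 (adjusted p = 0.0584 to 0.114), on the authors' RPKM (0.0819 and 0.0829) and with no antibody replicates 1 and 4 both left out (-0.10, adjusted p = 0.0632). Dcbld2, which overlaps its end on the other strand, was not called (log2 fold change 0.03, adjusted p = 0.776).

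St6gal1, which puts alpha2,6-linked sialic acid on N-glycans, had 123, 119, 129 and 127 CPM with the antibody and 114, 115, 112 and 110.3 CPM without it. Its arms did not overlap, but it missed the threshold (log2 fold change 0.14 ± 0.05, adjusted p = 0.0599), and passed it without no antibody replicate 1 (adjusted p = 0.0332). St3gal4, like St3gal6 an enzyme of lactosamine chains, was at 92.9 ± 1.47 CPM with the antibody and 87.9 ± 4.29 CPM without it and was not called. Enzymes that add alpha2,8-linked sialic acid were scarce: of the 6 St8sia genes only St8sia4 could be tested, at 0.785 ± 0.232 CPM with the antibody and 0.853 ± 0.196 CPM without it (adjusted p = 0.878).

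**Figure D3:**
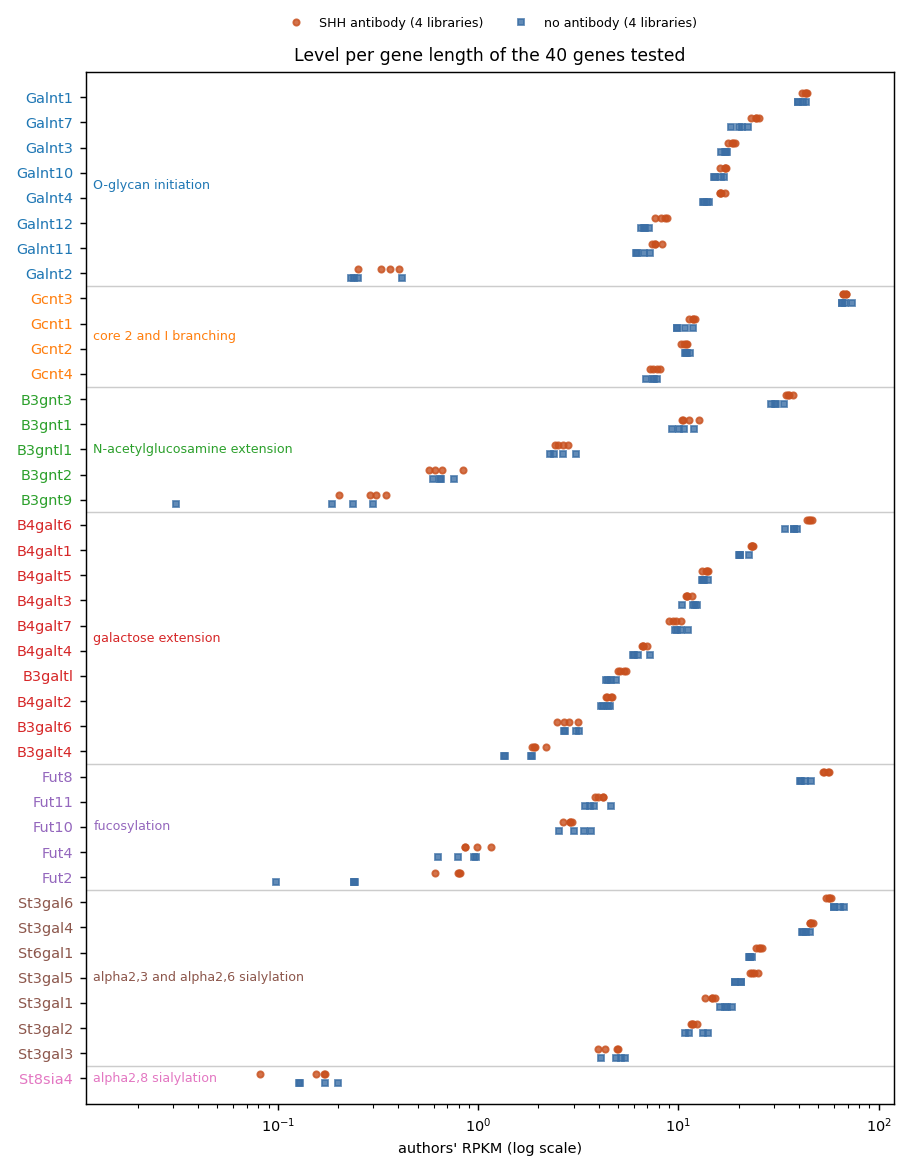
Level of each tested member in the authors' RPKM (log axis), with 1 point per library, SHH antibody (circles) above no antibody (squares), grouped by role and ordered within it by level. Gcnt3, St3gal6, St3gal4, Fut8 and Galnt1 lead in the no antibody arm, and Fut2 and St8sia4 lie among the lowest.

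Per length, 21 of the tested members were above 10 RPKM in both arms, 9 of the 11 called members among them, and 6 were under 1 RPKM in both. Without antibody the order began with Gcnt3 at 68.2 RPKM and St3gal6 at 62.8 RPKM, whose ranges overlapped. St3gal4 (43.1 RPKM), Fut8 (42.5 RPKM) and Galnt1 (41.1 RPKM) followed with overlapping ranges. Then came B4galt6 at 37.1 RPKM and B3gnt3 at 31.0 RPKM, whose ranges did not overlap those of their neighbours. The gaps around B4galt6 (34.0 to 39.1 RPKM) were narrow, with Galnt1 from 39.5 RPKM and B3gnt3 up to 33.6 RPKM. With the antibody, Fut8 at 54.5 RPKM was close to St3gal6 at 56.2 RPKM. For 15 of the 29 uncalled members the 95% interval of the change lay within 1.2-fold either way. All 69 members together took 0.284% ± 0.00145 of the counts with the antibody and 0.269% ± 0.00364 without it.

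Over the tested members of each role the median change was 0.23 for initiation, 0.01 for branching, 0.09 for N-acetylglucosamine, 0.07 for galactose, 0.20 for fucose and -0.06 for alpha2,3 and alpha2,6 sialic acid, on the log2 scale. The fucose median is over 5 genes and includes Fut2 (1.83), which entered the test only through the antibody libraries. The other fucosyltransferase values ran from -0.16 for Fut10 to 0.35 for Fut8. Roles went by symbol, so B3gnt1 was counted with N-acetylglucosamine and B3galtl with galactose.

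The remaining 29 members were too scarce to test, and 10 of them had no count in any library: Galnt5, Galnt6, Galnt9, Galntl5, Gcnt7, B3gnt5, B3galt2, St6gal2, St8sia2 and St8sia5. Among the other 19, Galntl6 reached at most 20 counts in a library under 1 identifier and 2 under the other, St8sia6 reached 13 and Fut1 reached 8. The rest never passed 5 counts: Galnt13, Galnt14, Galnt15, Galnt16, Galnt18, B3gnt4, B3gnt6, B3gnt7, B3gnt8, B3galt1, B3galt5, Fut7, Fut9, St8sia1 and St8sia3. B3gnt6, the core 3 enzyme of colon and stomach, thus had 4 counts at most, and B3galt5, an enzyme of type 1 chains, had 1.

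The other enzymes, carriers and acceptors of the pathway were counted from 7 lists made by known role, which hold 103 genes of the table. Of 76 tested, 6 rose and 2 fell, with a median log2 fold change of 0.05. These 8 genes are 10.5% of those tested, not far from the 8.4% of all genes. With no antibody replicates 1 and 4 both left out, 19 of the 76 were called (25%), beside 16.3% of all genes. Without antibody replicate 2 or 3, 4 of the 76 were called (5.26%), beside 4.94% and 5.06% of all genes, and without no antibody replicate 4, 12 were (15.8%), beside 8.69%. Among 11 tested acceptors 2 rose and 1 fell, beside 4.53% and 3.87% of all genes. Those that rose were the secreted gel-forming mucins Muc5ac and Muc5b. Muc5ac was at 21.1, 29.9, 25.6 and 24.1 CPM with the antibody and 16.8, 16.7, 14.1 and 12.2 CPM without it (log2 fold change 0.76 ± 0.11, adjusted p = 6.68e-05). Muc5b was at 7.14, 8.38, 8.29 and 6.91 CPM with the antibody and 3.90, 4.91, 4.12 and 4.93 CPM without it (log2 fold change 0.78 ± 0.13, adjusted p = 0.000420). For neither Muc5ac nor Muc5b did the arms overlap. The mucins Muc1, Muc4 and Muc6 were tested and not called (adjusted p = 0.272, 0.935 and 0.644). Muc1 was far more abundant, at 396 ± 18.7 CPM with the antibody and 367 ± 34.5 CPM without it.

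A list of core 1 enzymes, other N-acetylgalactosaminyl- and galactosyltransferases and enzymes that sialylate N-acetylgalactosamine or modify sialic acid had 11 tested genes, of which St6galnac2 alone rose, at 8.29 ± 0.513 CPM with the antibody and 5.94 ± 0.896 CPM without it (log2 fold change 0.47 ± 0.12, adjusted p = 0.0186). St6galnac2 adds alpha2,6-linked sialic acid to the first sugar of an O-glycan. Its call was lost without antibody replicate 2, 3 or 4 or no antibody replicate 2 (adjusted p = 0.0551 to 0.0654), and on the authors' RPKM (0.0514 and 0.0658). Of 22 tested genes for nucleotide sugars and their carriers, Gmds rose, the first enzyme of GDP-fucose synthesis from GDP-mannose (log2 fold change 0.32 ± 0.10, adjusted p = 0.0482), but it kept its call in 6 of 19 alternatives and lost it without any 1 antibody library or without no antibody replicate 1 or 3 (adjusted p = 0.0577 to 0.145). Gnpnat1, an enzyme on the way to UDP-N-acetylglucosamine, fell (log2 fold change -0.28 ± 0.07, adjusted p = 0.01001). It was not called with no antibody replicates 1 and 4 both left out (-0.14, adjusted p = 0.128), or on the authors' RPKM (0.066 and 0.0645). Among 12 tested N-glycan enzymes, Mgat3, which adds the bisecting N-acetylglucosamine, had 257 ± 4.87 CPM with the antibody and 228 ± 5.30 CPM without it (adjusted p = 0.0130), and was not called without antibody replicate 2 or 3 (adjusted p = 0.0611 and 0.0695). Man1a2, a Golgi mannosidase that trims N-glycans, had 194 ± 1.75 CPM with the antibody and 163 ± 7.98 CPM without it (adjusted p = 0.00142). Of the 8 tested O-fucose and O-mannose enzymes, the 2 sulfotransferases and the 10 lysosomal glycan-degrading enzymes, 0 were called by edgeR, DESeq2 or limma voom, and 0 had an unadjusted p under 0.05.

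**Figure D4:**
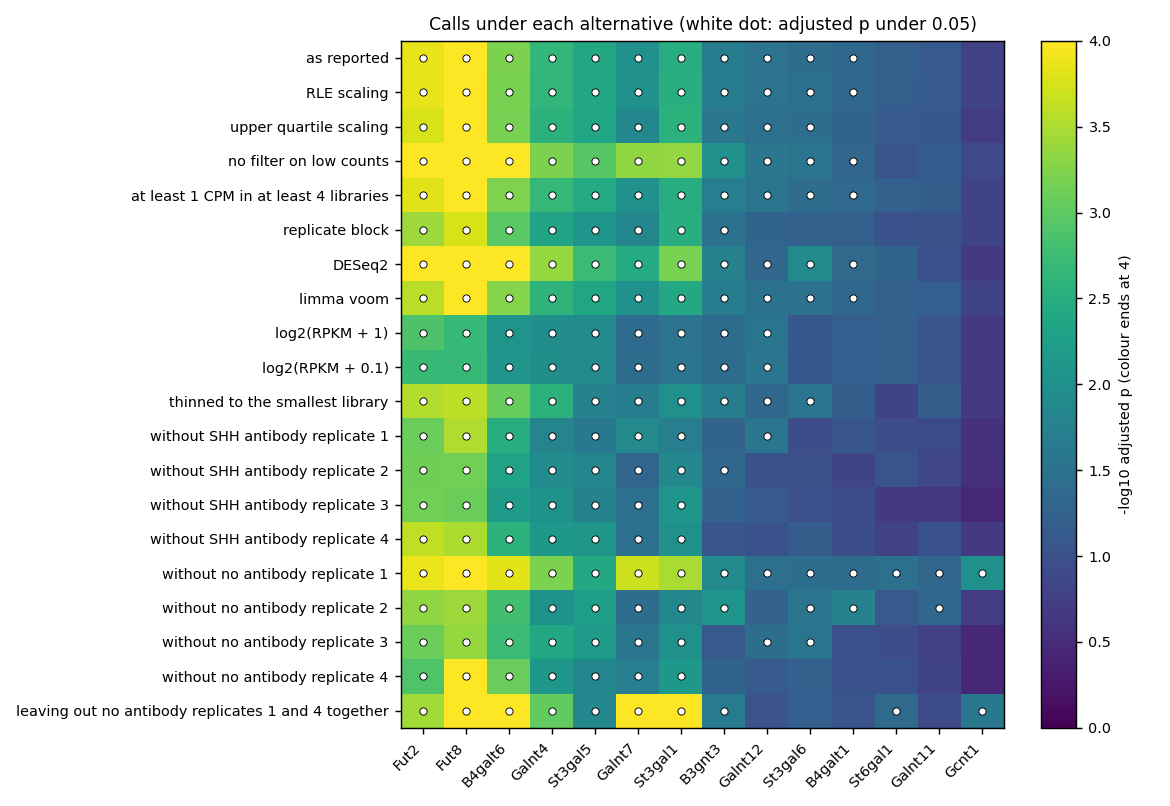
Adjusted p, as -log10 in colour, of the 11 called members and of St6gal1, Galnt11 and Gcnt1 (columns) in the reported fit and under 19 alternatives (rows), with a white dot where adjusted p was under 0.05. Fut2, Fut8, B4galt6, Galnt4, St3gal5, Galnt7 and St3gal1 have a dot in every row, whereas B4galt1 kept its call in 7 of 19.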

How the data were processed

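Strand-specific polyA RNA libraries of the sorted cells were read from both ends, per the labels' protocols. Per the submitters' processing notes, CASAVA 1.8.2 and TopHat2 2.0.9 were used, with the genome GRCm38. How reads were counted, on which strand and with which annotation, is not given in the sources used here, so reads of genes that overlap may be shared. The authors deposited raw counts per Ensembl gene and RPKM values for the same 8 libraries. For 14149 of 14149 genes checked, the deposited RPKM equalled the count over gene length and column total within a relative tolerance of 1e-04. Sample titles with a minus sign are, per the labels' treatment field, the libraries with antibody. The labels name biological replicates, and p-values measure the spread between these libraries.

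Counts of all genes passing filterByExpr were scaled by TMM and fitted with the arm as the only term in edgeR 4.0.16 (R 4.3.3), using its quasi-likelihood F test with Benjamini-Hochberg adjustment over 13626 genes and calls at adjusted p under 0.05. CPM use TMM-scaled totals, except in the marker sums, which use unscaled totals, and are given as mean ± SD over 4 libraries. Fold changes are antibody over no antibody, with standard errors from the F statistic. A count of 3 is 0.191 to 0.300 CPM, which covers counting error only. The procedure was tested on simulated counts.

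Described in every library were Fut2, Galnt7, Gcnt3 and every called member. St6gal1, Muc5ac and Muc5b were shown so after their values were seen. Raw counts of Fut1, the neighbour of Fut2, were also given in every library, outside that choice. From the other lists the called genes are named, except 1 that is not reported here, as is 1 allele of the labelled genotype. Members and lists were chosen with earlier results of these data known. Promoter windows came from RefSeq (GRCm38.p6), where 51 of the 69 members had an entry; Fut2, Gcnt3, Galnt4, Galnt12 and St3gal1 had none. Alternatives were upper quartile or RLE scaling, no filter, at least 1 CPM in at least 4 libraries, a replicate block, DESeq2 1.42.0, limma 3.58.1 voom, limma on log2(RPKM + 1) and log2(RPKM + 0.1), thinning to the smallest library and leaving out libraries.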

Additional observations from a re-analysis of the deposited data

Results flagged for a closer look

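In 80 sets of 4 libraries, 1 per arm for each of the 40 tested members, the highest or lowest library was set against the other 3 with Dixon's test at 95% confidence, and 4 sets passed. Chance alone would flag about 5% of sets. Fut2 passed in both arms: antibody replicate 4 was at 1.75 CPM while the other antibody libraries were at 2.29 to 2.32 CPM, and no antibody replicate 3 was at 0.281 CPM, from 3 counts, while the others were at 0.685 to 0.701 CPM. Galnt2 in no antibody replicate 3 was at 1.78 CPM, above 1.00 to 1.09 CPM in the others. B4galt5 in the same library was at 60.8 CPM, above 57.4 to 57.9 CPM in the others. No antibody replicate 1, which stood apart over all genes, was flagged in 0 of the sets.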

How the results depend on the processing

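Of 754 log2 fold changes of tested members recomputed under 19 alternatives, 690 kept their direction and side of the threshold, 33 lost a call, 8 gained one and 23, all uncalled in both fits, changed sign. Fut2, Fut8, B4galt6, Galnt4, St3gal5, Galnt7 and St3gal1 stayed called in all 19 (Fut2 at 0.54 on log2(RPKM + 1), otherwise up to 2.14), B3gnt3 in 14, Galnt12 in 12, St3gal6 in 10 and B4galt1 in 7. Leaving out 1 library at a time gave 6 to 12 members called higher, 1 to 2 called lower and 4 to 12 other pathway genes called. The share of all genes called ran between 4.94% and 10.8% (1485 genes without no antibody replicate 1, where 12 members were called higher). These counts did not always move together. Without no antibody replicate 4, 6 members were called higher and 12 other pathway genes were called, beside 8.69% of all genes. Same-numbered libraries showed no shared deviations (correlations from -0.036 to 0.01, and 0 of the 4 pairs over 0.1). The labels do not say whether the replicate numbers mark a shared day or batch, and these correlations cannot exclude it. With a replicate block, 7 members were called higher and 1 lower, with B4galt1, Galnt12 (adjusted p = 0.0507) and St3gal6 (adjusted p = 0.0564) not called. On log2(RPKM + 1) and on log2(RPKM + 0.1), 1 member was called lower and 4 other pathway genes were called, with 675 and 670 of all genes, against 1144. All genes called numbered 679 without antibody replicate 2 and 695 without antibody replicate 3. Leaving out no antibody replicates 1 and 4 together, an alternative chosen after seeing the data, called 19 other pathway genes and 2263 of all genes. The cause of these shifts was not tested.

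The changes of sign with those libraries left out gave B4galt5 -0.0129, B4galt4 -0.0090, B3galt6 0.0487, Fut11 -0.0616, Gcnt3 0.0133, B3gnt2 0.10 and B3gntl1 0.14. B3gnt2 was at 0.0077 with the replicate block and 0.0036 on both RPKM scales, and B3gntl1 was at 0.0010 on log2(RPKM + 1), 0.0030 on log2(RPKM + 0.1) and 0.0173 on thinned libraries. Without 1 library at a time, St8sia4 ran from -0.24 to 0.074, St3gal2 from -0.13 to 0.0068, Gcnt3 from -0.0433 to 0.0259, B3gnt2 from -0.13 to 0.0703, B3gntl1 from -0.082 to 0.0674 and Gcnt4 from -0.0050 to 0.0689. Depth limits Fut2 without antibody, which rests on 3 to 10 counts a library, and the 29 untested members.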
